A study of Mus musculus with 192 samples.

Results

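The windows described here are the open chromatin windows that lay at a promoter with annotated starts on a single strand and that came from a peak call with more than 1 summit. Of the 50000 deposited windows, 4674 (9.35%) were such windows, from 2167 peak calls. A window was taken where its peak name ended in a letter, which the peak caller adds when it splits 1 call into several summits, and where a protein-coding transcript start lay within 1 kb of its midpoint on exactly 1 strand of the DNA. The letter is itself a product of the measured signal, so the members were selected on a measured value and the number of summits per call is given below as a description only.

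Pi-ATAC reads open chromatin by transposition in cells whose surface proteins are stained and recorded during the sort. Here 4T1 cells and splenocytes were mixed 1:1, fixed, transposed in bulk and placed in wells as single cells. 4T1 is a mouse breast cancer line. The splenocytes came from the spleen of an MMTV-PyMT mouse that carried no tumour at the time. In such mice a mammary tumour virus promoter drives an oncogene. After transposition the mixture was stained for both the epithelial surface protein EpCAM and the leukocyte surface protein CD45, which told the cells apart. By title, 96 samples were 4T1 cells and 96 were splenocytes, although 1 sample titled as a 4T1 cell carried the source name of the splenocytes. The deposited list names its peaks as calls on all cells, which was read as both groups pooled. The study's methods describe calling on the aggregated cells of a condition, so that reading is not settled. The list is therefore 1 sample without replicates, with no score or read count per window, and no difference between 4T1 cells and splenocytes was tested. All intervals below are 95% intervals, exact binomial for shares and from order statistics for medians. They cover counting error only and are too narrow where windows of 1 call overlap.

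A promoter is the stretch of DNA where RNA polymerase II is loaded and transcription begins. Its open region is flanked by positioned nucleosomes, and when cut sites of the transposase pile up on either side of a nucleosome, or at separate start sites, a peak caller can split the region into several summits. Most mammalian promoters of broadly expressed genes lie in CpG islands, GC-rich stretches in which the CpG dinucleotide has not been lost through methylation and decay, and initiation there is often spread over many bases and in both directions. The CpG ratio used below is the number of CpG divided by the number expected from the C and G content of the window, and a window with a ratio of 0.6 or more is called CpG-rich.

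The 9 stretches of 120 bases shown here, each centred on a member summit, were chosen for their words, although that of Myc held none. On a given side of the start, the window with the most words was taken. Only at Eif1 do they show summits of 1 call on either side of a start. They were read from mm9 on the strand of the gene, 5′ to 3′, from windows of named genes whose 120 bases met no annotated UTR. A negative position is upstream of the nearest start of the gene. Capitals mark the short words searched for, which are the SP/KLF GC box GGGCGG, the ETS word CCGGAAG, the CCAAT box bound by NFY, the AP-1 word TGANTCA, the NRF1 word GCGCNTGCG, the E-box CACGTG, the NF-kB word GGGANTTCC and the CTCF core CCACNAGGT, on either strand.
Myc, summit -321 bp, outside annotated protein-coding transcripts, chr15:61816566-61816685, plus strand: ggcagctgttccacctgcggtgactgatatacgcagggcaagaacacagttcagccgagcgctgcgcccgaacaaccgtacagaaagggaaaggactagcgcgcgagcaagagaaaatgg
Nr4a3, summit -130 bp, outside annotated protein-coding transcripts, chr4:48057836-48057955, plus strand: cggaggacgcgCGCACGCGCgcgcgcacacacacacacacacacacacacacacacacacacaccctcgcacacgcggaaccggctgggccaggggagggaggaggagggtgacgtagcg
Tle1, summit -164 bp, outside annotated protein-coding transcripts, chr4:71862058-71862177, minus strand: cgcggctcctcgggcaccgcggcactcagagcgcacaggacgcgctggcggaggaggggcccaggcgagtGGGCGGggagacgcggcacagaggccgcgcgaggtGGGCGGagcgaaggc
Tgif1, summit 409 bp, intron, chr17:71200003-71200122, minus strand: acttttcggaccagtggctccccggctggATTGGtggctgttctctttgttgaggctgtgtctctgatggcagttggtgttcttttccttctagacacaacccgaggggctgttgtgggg
Cic, summit -98 bp, intron, chr7:26053249-26053368, plus strand: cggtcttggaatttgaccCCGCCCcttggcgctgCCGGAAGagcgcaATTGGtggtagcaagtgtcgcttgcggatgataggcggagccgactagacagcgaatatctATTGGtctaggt
Eif1, summit -83 bp, outside annotated protein-coding transcripts, chr11:100181057-100181176, plus strand: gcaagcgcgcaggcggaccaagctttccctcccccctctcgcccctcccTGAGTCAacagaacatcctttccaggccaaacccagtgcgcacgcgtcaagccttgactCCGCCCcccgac
Eif1, summit 603 bp, intron, chr11:100181743-100181862, plus strand: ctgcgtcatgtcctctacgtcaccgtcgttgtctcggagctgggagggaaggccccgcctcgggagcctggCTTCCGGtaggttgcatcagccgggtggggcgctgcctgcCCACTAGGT
Mdm2, summit 612 bp, intron, chr10:117147143-117147262, minus strand: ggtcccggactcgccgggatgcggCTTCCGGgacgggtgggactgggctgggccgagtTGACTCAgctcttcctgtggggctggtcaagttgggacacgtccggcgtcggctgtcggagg
Tnfaip3, summit -63 bp, intron, chr10:18735220-18735339, minus strand: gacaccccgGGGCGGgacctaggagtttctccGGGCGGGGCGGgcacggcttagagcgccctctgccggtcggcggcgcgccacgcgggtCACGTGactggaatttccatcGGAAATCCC
The Myc summit upstream of the gene held none of the searched words within its 120 bases, whereas the Tnfaip3 and Cic stretches held 5 and 4 words. In the Eif1 call the upstream stretch held an AP-1 word and a GC box, and the intronic stretch of the same call held an ETS word and a CTCF core word. A match is a description of the letters and was not tested as a bound site.

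Members made up 33.7% (32.9 to 34.4) of the 13888 windows at promoters with starts on a single strand. The other 9214 such windows had 1 summit per call and serve as the comparison throughout. They are not all lone summits, since 3745 of them (40.6%) had another listed window, from any call, within 1 kb. Members also made up 51.3% of the 9104 multi-summit windows, the rest being 796 windows with starts on both strands and 3634 windows over 1 kb from any protein-coding start. Just inside the 1 kb limit lay windows at Hist1h1b, Atad2 and Bhlhe40 (999 bp each), Hes1 (997 bp) and Tsc22d3 (991 bp), and just outside it lay multi-summit windows at Tob1 (1001 bp), Slc38a1 (1004 bp), Add3 (1005 bp), St3gal4 (1006 bp) and Maged1 (1007 bp).

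A pair of summits was the usual form of these calls. Of the 2167 calls, 1631 (75.3%) had 2 windows in the list, 358 (16.5%) had 3, 117 (5.40%) had 4 and 34 (1.57%) had 5 or more. The remaining 27 calls had 1 listed window although their name carried a letter. In 98.3% of calls the listed letters ran from a without a gap, although a summit after the last listed letter would leave no trace. All listed windows of the call were members in 88.5% of calls, and 348 further windows of these calls were not, of which 260 lay over 1 kb from a start and 88 had starts on both strands within reach.

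Neighbouring member summits of a call stood a median of 388 bp apart (378 to 398, n = 2507 pairs), with quartiles of 296 and 512 bp. The median was 394 bp (368 to 408) at promoters with starts on both strands and 362 bp (354 to 370) away from promoters. With the 1 kb limit the spacing was thus a little wider at promoters than away from them, and close to the same at both kinds of promoter. With starts within 500 bp the member spacing was 352 bp (344 to 362). The spacing away from promoters was not measured again at that limit, so the order rests on the limit of 1 kb. Only 20 of the 2507 pairs were under 150 bp apart, while 72.8% were closer than 500 bp and so had overlapping windows. Pairs 100 to 150 bp apart were 0.718% of member pairs, 0.943% at promoters with starts on both strands and 0.358% away from promoters. How close together the peak caller can place summits of a call was not tested. The scarcity of shorter distances is therefore given as a count only. Between the outer summits of a call the median distance was 468 bp (453 to 482).

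**Figure D1:**
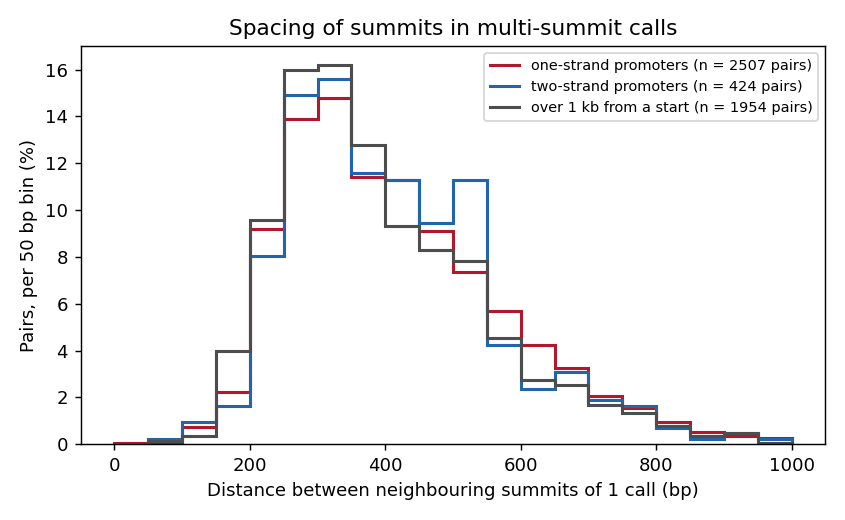
Distance in bp between neighbouring summits of 1 call (x axis) against the percent of pairs in each 50 bp bin (y axis), for calls at promoters with starts on one strand (red), on both strands (blue) and over 1 kb from a start (grey). The 3 curves begin to climb near 150 bp and are highest between 250 and 350 bp, and the medians are 388, 394 and 362 bp.

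Counted window by window, member summits lay farther from the transcript start than single summits did. This is a description with no reading of its own, because summits of 1 call stand apart by the rule that chose them and can rarely all lie close to 1 start. The median distance to the nearest start was 213 bp (201 to 224) for members and 150 bp (145 to 156) for single-summit windows. Within 100 bp of the start lay 28.1% of members (26.8 to 29.4) and 37.7% of single-summit windows (36.7 to 38.7). Over 500 bp from the start, on either side, lay 21.3% of members and 22.7% of single-summit windows. With only the window nearest to the start kept from each call, 55.7% of the 2167 windows (53.6 to 57.9) lay within 100 bp of it, a higher share than for single-summit windows, although taking the nearest of several favours a short distance. The share downstream of the start was 45.5% for members and 45.7% for single-summit windows, and 40.0% (37.9 to 42.1) for the nearest window of each call.

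Window by window, the members had 2 shoulders, which the spacing of summits within a call also bears on. From 300 to 450 bp downstream of the start lay 8.96% of members (8.16 to 9.82) against 4.61% of single-summit windows (4.19 to 5.06), and from 350 to 650 bp upstream lay 12.0% (11.1 to 13.0) against 5.75% (5.29 to 6.25). These ranges were chosen after the positions had been plotted. Farther out the order differed between the sides. Over 500 bp upstream were 11.4% of members and 8.02% of single-summit windows, whereas over 500 bp downstream were 9.91% of members and 14.7% of single-summit windows.

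**Figure D2:**
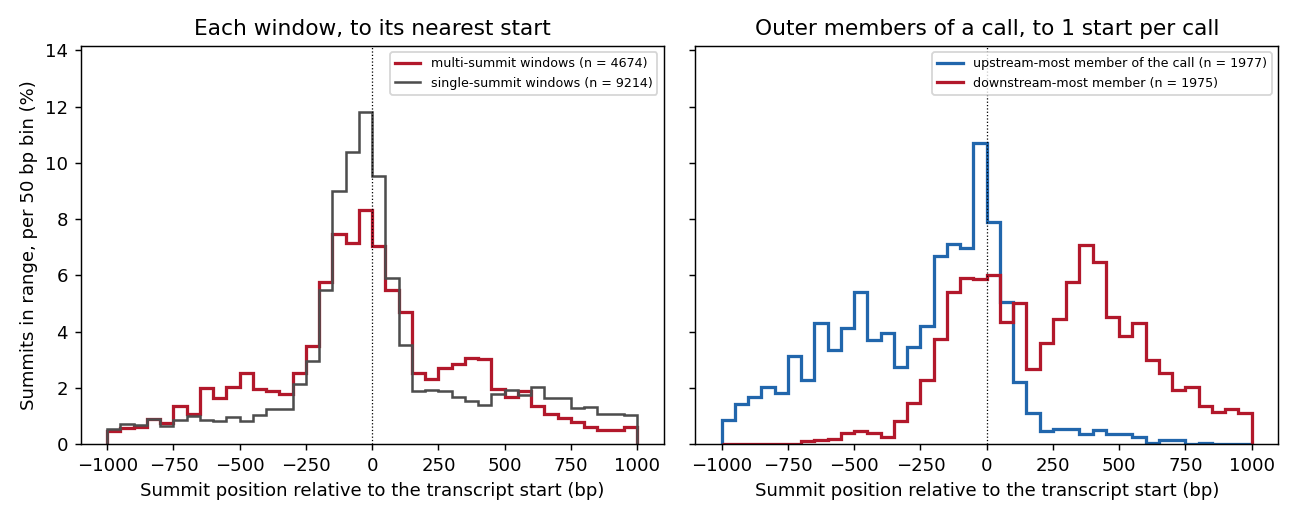
Summit position relative to the transcript start in bp (x axis, negative upstream) against the percent of summits per 50 bp bin (y axis). On the left, members (red) have a lower peak at the start than single-summit windows (grey) and shoulders on either side. On the right, the upstream-most (blue) and downstream-most (red) member of each call are placed against 1 start per call, with medians of -192 and 263 bp, and summits beyond 1000 bp are not drawn.

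A transcript start lay between the outer summits in 57.5% of calls (55.4 to 59.6), and 23.3% of calls had 2 or more annotated starts between them. The share with a start in between was 53.8% for calls of 2 listed windows, 70.4% for 3 and 77.5% for 4 or more, and the median spans of these calls were 401, 788 and 1369 bp. In 1994 calls with at least 2 members on the same strand, positions were measured from the start nearest to any of them. In 52.7% of these (50.5 to 54.9) the outer members stood on either side of that start, in 27.5% (25.5 to 29.5) all stood upstream and in 19.8% (18.1 to 21.6) all stood downstream. The median distance between the outer members was 511 bp where they straddled the start, 404 bp where all were upstream and 397 bp where all were downstream.

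The upstream and the downstream summit of a call differed in base composition. The annotation placed there differed too, as it must in large part, since the 2 were sorted by position along the gene. The upstream window had a median GC content of 58.4% (57.8 to 58.8) and the downstream window 61.4% (61.0 to 62.0), and the downstream window was the richer in GC in 62.8% of calls (60.6 to 64.9). Among the 831 calls whose outer windows did not overlap, that share was 58.0% (54.6 to 61.4). Of the upstream summits 65.7% lay outside annotated protein-coding transcripts, and of the downstream summits 48.1% lay in an intron and 21.0% in a 5′ UTR. Taken over all members, 42.6% of summits lay outside transcripts, 31.3% in introns, 18.9% in 5′ UTRs, 7.00% in coding exons and 0.300% in 3′ UTRs. Single-summit windows gave 42.0%, 30.8%, 19.6%, 7.29% and 0.380% in the same order, so the annotation at a summit barely separated the 2 kinds of window.

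Members were as rich in GC as single-summit promoter windows, with a median of 60.2% in each. Their median CpG ratio was 0.721 (0.714 to 0.729) against 0.713 (0.707 to 0.718), well above the 0.281 of multi-summit windows away from promoters and below the 0.772 of those with starts on both strands. CpG-rich windows made up 69.6% of members (68.3 to 71.0) and 65.2% of single-summit windows (64.2 to 66.2). With the limit set at 500 bp from the start in place of 1 kb, the shares were 75.5% (74.2 to 76.9) and 74.5% (73.5 to 75.5), and their intervals overlapped.

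The share of members was lowest at the CpG-poor end. Among windows at these promoters with a CpG ratio under 0.2, 15.7% were members (13.1 to 18.6), and between 0.2 and 0.4 the share was 26.6% (24.4 to 28.8). It was 37.9% (35.9 to 39.9) between 0.4 and 0.6, 36.9% between 0.6 and 0.8, 33.8% between 0.8 and 1.0 and 31.9% (28.6 to 35.3) at higher ratios. Multi-summit windows were thus least common among promoter windows almost without CpG. The share was highest between 0.4 and 0.6 and fell from 37.9% there to 31.9% at the highest ratios, with intervals that did not overlap.

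The CpG-rich stretch around the start was measured on the genome alone, as the run of 200 bp steps with a GC content over 50% and a CpG ratio over 0.6. Its median length was 980 bp (960 to 1010) at the 2157 starts nearest to a member call and 870 bp (860 to 880) at the 7698 starts with single-summit windows only. At starts with windows on both strands it was 1100 bp, and over all 45969 annotated starts 540 bp. No such stretch was found at 5.33% of the member starts and 12.2% of the single-summit starts. The share of starts with a member was lowest with no stretch, at 13.8% (11.8 to 16.0), and highest with a stretch of 1500 bp or more, at 36.1% (33.6 to 38.7). It was 26.4% for stretches under 500 bp, 26.1% from 500 bp and 29.1% from 1000 bp.

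**Figure D3:**
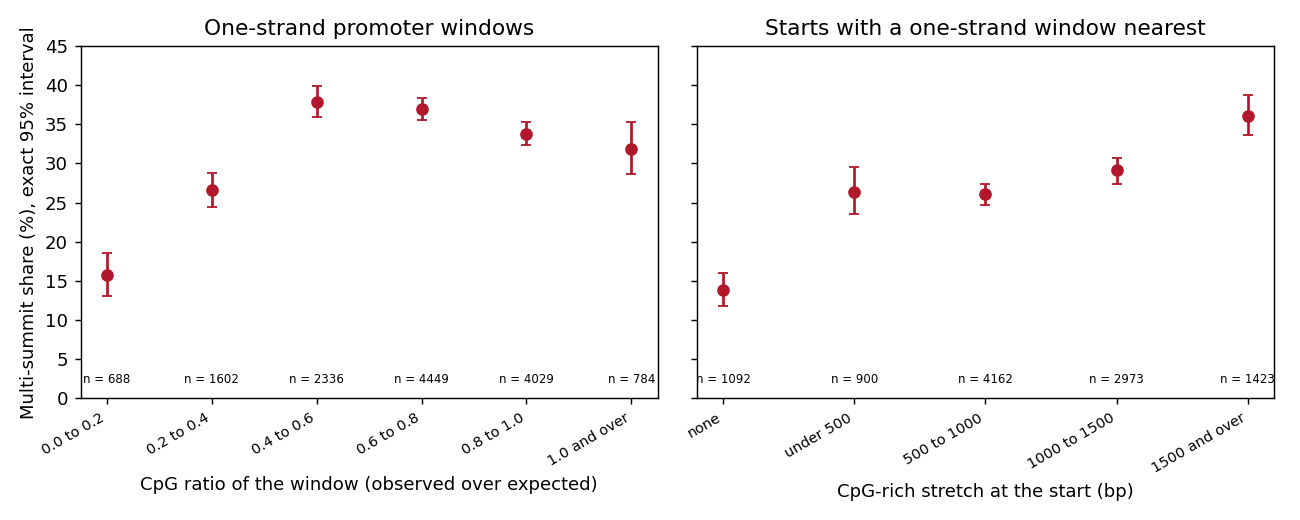
Share of multi-summit windows among promoter windows with starts on one strand, by CpG ratio of the window (left), and share of starts with a member, by length of the CpG-rich stretch at the start (right). Points are percents with exact 95% intervals, and the counts under them are windows or starts. The share is lowest at 15.7% for ratios under 0.2 and 13.8% for starts without a stretch, and reaches 36.1% at the longest stretches.

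Calls with more summits sat on longer stretches but held fewer CpG-rich windows. The median stretch was 950 bp for calls of 2 listed windows, 1080 bp for 3 and 1180 bp for 4 or more, while the share of CpG-rich member windows was 72.5%, 63.1% and 64.9%. Words typical of CpG island promoters were also fewer in the larger calls. ETS words were in 19.3%, 16.2% and 10.2% of member windows, and NRF1 words in 12.2%, 7.93% and 7.45%. A TATA box TATAAA in the classical place, 20 to 40 bp before the start, was found at 29 member starts (1.34%) and at 57 single-summit starts (0.740%), against 1.58% of all annotated starts. At member starts this share was 1.10%, 1.96% and 2.65% for calls of 2, 3 and 4 or more windows, which with 29 starts in all rests on small counts.

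In all, 19 short words were searched for on both strands of each window. The hypoxia response element ACGTGC, the E-box CACGTG and the CREB/ATF word TGACGTG share letters and can overlap, and the reverse complement of CCAAT can overlap the NFI word TTGGCA. In members as in single-summit windows the GC box bound by SP and KLF factors was the most frequent, in 67.5% (66.2 to 68.9) and 66.4% of windows against 31.1% of all windows in the list. CCAAT was in 44.2% and 45.4% against 46.2%, ETS in 17.6% and 17.8% against 8.56%, and the E-box in 12.9% and 13.1% against 10.1%. Over whole windows, the intervals of members and single-summit windows overlapped for each of these words. Split by CpG ratio the GC box differed in opposite directions, being in 78.2% of CpG-rich members (76.7 to 79.6) and 82.7% of CpG-rich single-summit windows (81.7 to 83.7), but in 43.2% (40.6 to 45.8) and 36.0% (34.3 to 37.7) of CpG-poor ones. In the central 200 bp CCAAT was in 22.8% of members (21.7 to 24.1) and 26.5% of single-summit windows (25.6 to 27.4).

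A few words stood farther apart. NRF1, the factor of nuclear genes for mitochondrial proteins, had its word in 10.7% of members (9.87 to 11.7) and 12.2% of single-summit windows (11.5 to 12.9), compared with 4.61% of all windows, and in the central 200 bp in 5.07% and 7.52%. Within the windows, 45.5% of the 703 NRF1 words of members lay within 100 bp of the summit, against 59.7% of the 1540 words of single-summit windows. Such shares were also lower in members for ETS (47.6% against 54.8%) and CCAAT (44.9% against 51.0%), among other words. They were higher in members for TATAAA, NFI, E2F and the hypoxia response element. A word where member windows overlap is counted in each window, and the part of this overlap was not tested. The AP-1 word, read by FOS and JUN dimers, was in 12.3% of members (11.4 to 13.3) and 10.6% of single-summit windows (9.99 to 11.3), both below the 24.8% of the whole list. Among CpG-poor windows the AP-1 shares were 23.0% and 18.9%. The hypoxia response element was in 13.9% and 12.4% (9.24% of all), and the long YY1 word AAGATGGCG in 2.82% and 3.49% (1.37% of all). Over the whole window, the intervals overlapped for NRF1, the hypoxia response element and YY1, and not for AP-1. In the central 200 bp AP-1 was in 4.58% of members (4.00 to 5.22) and 4.84% of single-summit windows (4.41 to 5.30), and these intervals overlapped. With 1 window per call, the nearest to the start, AP-1 was in 10.2% of members (8.91 to 11.5). The whole-window difference for AP-1 thus depended on the windows and bases counted.

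For the remaining words the value over all listed windows stands in parentheses. TATAAA anywhere in the window was in 9.22% of members and 9.69% of single-summit windows (17.0% of all), TEAD GGAATG in 19.6% and 19.5% (25.9%), NFI TTGGCA in 18.1% and 18.0% (24.4%), and RUNX TGTGGTT in 6.48% and 6.51% (11.3%). The CREB/ATF word TGACGTCA was in 2.89% and 2.97% (1.43%), TGACGTG in 3.66% and 3.26% (2.80%), NF-kB GGGANTTCC in 2.89% and 3.16% (2.64%), and the interferon response word GAAANTGAA in 2.74% and 2.65% (3.37%). The CTCF core CCACNAGGT was in 1.99% and 1.54% (2.06%), E2F TTTGGCGC in 1.28% and 1.25% (0.612%), and the SRF word CCATATTAG in 0.107% and 0.152% (0.176%). Over whole windows these were close between the 2 kinds of promoter window, although in CpG-poor windows the CTCF core was in 3.17% of members (2.32 to 4.22) and 1.75% of single-summit windows (1.32 to 2.26).

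Some words were unequal between the upstream and the downstream summit of a call. Among the 831 calls with outer windows that did not overlap, CCAAT was in 49.3% of upstream and 38.4% of downstream windows. TATAAA was in 14.0% and 8.18%, and the E-box in 15.5% and 11.1%. The GC box was nearly even, at 61.3% and 64.3%. CCAAT and TATAAA thus lay more often in the upstream window, and the GC box did not. Most other words were also more frequent upstream, among them AP-1 (14.8% and 11.4%) and ETS (13.4% and 11.2%). Besides the GC box, only TEAD, YY1 and the CTCF core were more frequent downstream, and NF-kB was equal. TATAAA was counted anywhere in the window, not only in its classical place. No intervals were computed for these shares. The part of the lower GC content upstream (medians of 57.8% and 60.4%) was not tested.

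**Figure D4:**
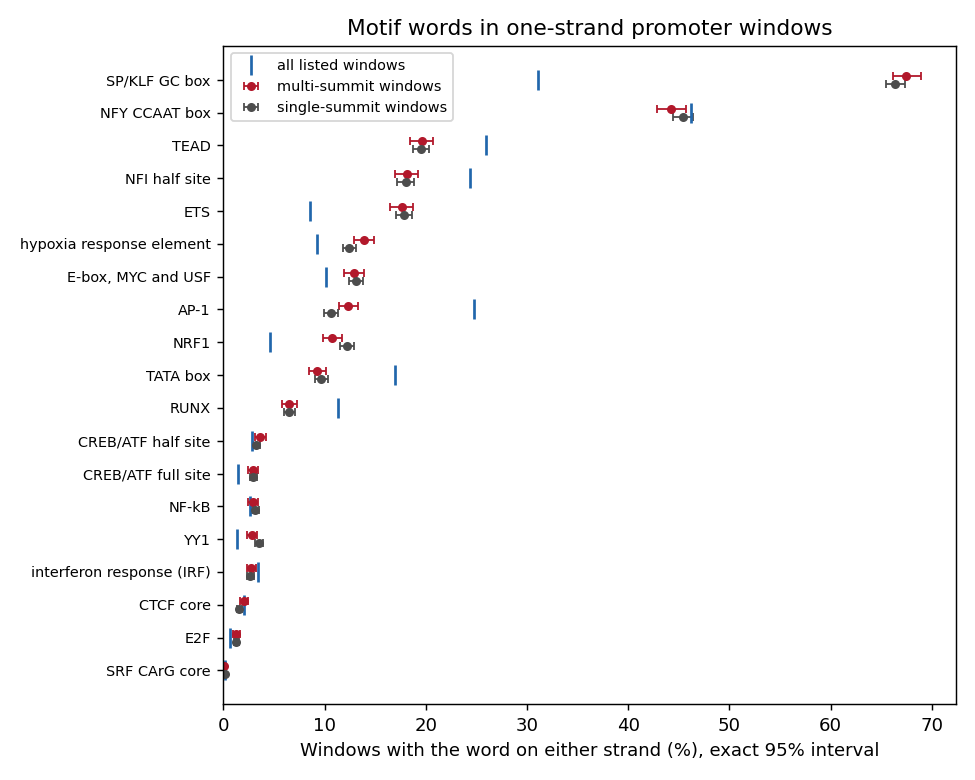
Percent of windows that hold each word on either strand (x axis), for members (red) and single-summit windows (grey) at promoters with starts on one strand, with exact 95% intervals, and for all 50000 windows (blue ticks). Members and single-summit windows lie side by side for most words, both far to the right of all windows for the GC box (67.5% and 66.4% against 31.1%) and to the left for AP-1 (12.3% and 10.6% against 24.8%).

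Of 22208 protein-coding genes, 2139 had a member window, which is 9.63%. Of the 8586 genes with any window at such a promoter, they were 24.9%. Both shares are the background for the gene lists below. Among the 2139 genes, 167 had 1 member window, 1543 had 2, 316 had 3 and 113 had 4 or more, and 49 genes had members from more than 1 call. Single-summit windows were also present at 554 of them. Distal windows, those over 1 kb from a start, had the same median number, 2, within 50 kb of the outermost start of genes with members and of genes with single-summit windows only. The means differed, and there lay on average 3.41 distal windows for genes with members, 2.80 for genes with single-summit windows only and 2.16 for all genes, and 10 or more lay around 6.64%, 3.52% and 2.50% of these genes.

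The genes with the most member windows were Acot7, Myc and Tgif1, with 8 each, and Tle1, with 7. Acot7, a thioesterase that cleaves long-chain acyl-CoA, had 2 windows at its first start, with CpG ratios of 1.03 and 0.752, and 6 around a start inside the gene, with ratios from 0.128 to 0.415. The 8 summits thus formed a CpG-rich pair and a longer CpG-poor row. Myc, the growth-promoting transcription factor, had calls of 4 windows each at its first exon and around a start some 2 kb downstream, between -834 and 808 bp of the nearest Myc start, with a median CpG ratio of 0.775.

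Tgif1, a homeodomain repressor of TGF-beta targets, had all 8 windows in 1 call that ran over 2838 bp and over 4 annotated starts, 5 of them with a summit in an intron. Tle1, a Groucho-family corepressor, had 7 windows in 1 call over 2507 bp with a median GC content of 71.2%. Its outermost windows had GC contents of 54.6% and 50.0%, so the call extended beyond its GC-rich centre on both sides.

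With 6 member windows each, 6 genes followed. These were Cic, an HMG-box repressor under control of ERK signalling, Lmo4, a LIM-only cofactor, Plec, the cytolinker plectin, Adamts1, a secreted protease, Mat2b, the regulatory subunit of methionine adenosyltransferase, and Myadm, a membrane protein. Plec had the most annotated starts, 15, and its windows came from 3 calls with a median CpG ratio of 0.318. Cic, Lmo4, Mat2b and Myadm each had 2 calls. Adamts1 had a single call that ran over 3483 bp with 7 listed windows, 6 of them members. With the outermost start of each gene taken as the only start, the counts of 8 of these 10 genes were lower by over 1.5 times. Acot7 then had 2 member windows, Myc 4 and Plec 0.

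The longest call of all belonged to Has2, a hyaluronan synthase, with 8 listed windows over 3525 bp. Only 3 of its windows were members, all upstream of the start, at -960 to -187 bp. A call at Ang and Rnase4, a pair of ribonuclease genes that share a promoter, had 7 listed windows over 2571 bp, of which 4 were members. The other 3 of the 5 largest calls were those of Tgif1, Adamts1 and Tle1.

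Immediate early genes, which are switched on within minutes of a growth or stress signal without new protein synthesis, had the highest share of the 25 gene lists. Of 29 such genes, 20 had a member window (69.0%, 49.2 to 84.7), and of the 28 with any window at a promoter of this kind 71.4% did (51.3 to 86.8), against backgrounds of 9.63% and 24.9%. They held 52 member windows in 23 calls, 10 of which (43.5%) had 3 or more listed windows, compared with 23.5% of all member calls. Myc had 8 windows, and Sgk1, a serum- and glucocorticoid-induced kinase, and Nr4a3, an orphan nuclear receptor, had 4 each. The gene lists were chosen with earlier results of these data known, so the rank of this list and its distance from the backgrounds are a description only.

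The AP-1 subunits were spread over the list. Fos and Junb had 3 member windows each, and Fosb, Jun and Jund had 2 each. Fosl2 had 1, and Fosl1 had a single-summit window only. Atf3 and Ier2 had 3 windows each, Egr1 and Egr2 2 each, and Egr3 none. Among the nuclear receptors of the list Nr4a3 had members, while Nr4a1 and Nr4a2 had 1 and 4 single-summit windows and no member. In all, 8 genes of the list had single-summit windows only, and 1, Csrnp1, had no promoter window.

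The CpG-rich stretch at the 27 starts nearest to these 52 windows had a median of 1810 bp, compared with 980 bp for all member calls. Starts with stretches of 1500 bp and over carried a member in 36.1% of cases, as given above. That share is per start and not per gene, and the part of stretch length in the counts of this list was not tested. The median CpG ratio of the 52 windows was 0.742, close to that of all members. TATAAA was in 12 of them (23.1%, against 9.22% of members), the SRF word in 3 (5.77% against 0.107%) and the CREB/ATF word TGACGTCA in 4 (7.69% against 2.89%), whereas ETS was in 4 (7.69% against 17.6%). These counts are small, and windows of 1 call share sequence.

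Of the other lists of inducible regulators, 5 had a larger share than all genes, as had lists of other kinds given below. Kruppel-like factors, the zinc-finger readers of the GC box, had members at 7 of 17 genes (41.2%, 18.4 to 67.1), led by Klf3, Klf6 and Klf13 with 4 windows each. Feedback regulators of ERK signalling had 7 of 18, among them the phosphatases Dusp7 and Dusp6 and the receptor inhibitor Lrig1. NF-kB subunits and inhibitors had 6 of 18, led by Rel, Nfkbiz and Tnfaip3. Hypoxia targets had 10 of 26 (38.5%, 20.2 to 59.4), among them the glycolytic Gapdh and Pgk1 and the stress-responsive Ndrg1. Heat shock and ER stress genes had 11 of 25 (44.0%, 24.4 to 65.1), among them the chaperones Hsp90aa1 and Hspa8 and the ER-associated degradation factor Herpud1. The lower bounds of all 5 lists lay above 9.63%. The same held for lists of other kinds below, such as translation factors (14.3%), splicing factors (14.2%) and cytosolic ribosomal proteins (12.9%). It did not hold for the ubiquitin (7.82%), respiratory chain (6.56%) and proteasome (5.45%) lists, among others. A lower bound above all genes was thus not particular to inducible genes. Of the genes with any window at such a promoter, the share with a member was 57.9% (33.5 to 79.7) for heat shock and ER stress genes and 63.6% (30.8 to 89.1) for Kruppel-like factors, whose intervals lay above the background of 24.9%. It was 43.8% (19.8 to 70.1) for the ERK list, 40.0% (16.3 to 67.7) for the NF-kB list and 43.5% (23.2 to 65.5) for hypoxia targets, whose intervals included that background.

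Among signalling and regulatory lists, p53 targets and CDK inhibitors had 7 of 22 (Gadd45a, Gadd45g and Mdm2 first), the TGF-beta pathway 7 of 24 (Tgif1, Tgfbr2 and Pmepa1), ETS factors 6 of 23 (Elf2, Etv1 and Ets2) and the Hippo pathway 4 of 17 (Amotl2, Wwtr1 and Mob1b). Among lists of housekeeping genes, translation factors had 8 of 26 (Eif1, Eif4a1 and Eif4a2), splicing factors 9 of 31 (U2af2, Srsf6 and Hnrnpl), genes of the actin and tubulin cytoskeleton 9 of 31 (Tmsb10, Vim and Actb) and cytosolic ribosomal proteins 11 of 45 (Rpl24, Rpl38 and Rpl14). Ubiquitin genes and E2 enzymes had 5 of 22 (Ube2d3, Ubb and Ube2m) and respiratory chain subunits 6 of 35 (Uqcrc2 and Uqcrc1 among them). Of their genes with any window at such a promoter, these lists had a member at 28.6% to 46.7%. With 14 to 33 such genes a list, the interval of every one of these lists included the background of 24.9%, so none of them could be told from it at this list size.

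Proteasome subunits (5 of 31, Psmc6, Psma3 and Psma6), cell cycle genes (5 of 30, Ccnd2, Cdk6 and Mcm5) and chromatin regulators (5 of 40, Tet2, Smarca2 and Eed) had members at 20.8% (7.13 to 42.2), 20.0% (6.83 to 40.7) and 15.6% (5.28 to 32.8), taken over genes with any such window, and these intervals also included the background. Most of their promoters were open, with a promoter window at 30, 26 and 34 genes. The single-summit windows of the genes without members had median CpG ratios of 0.828, 0.772 and 0.814.

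**Figure D5:**
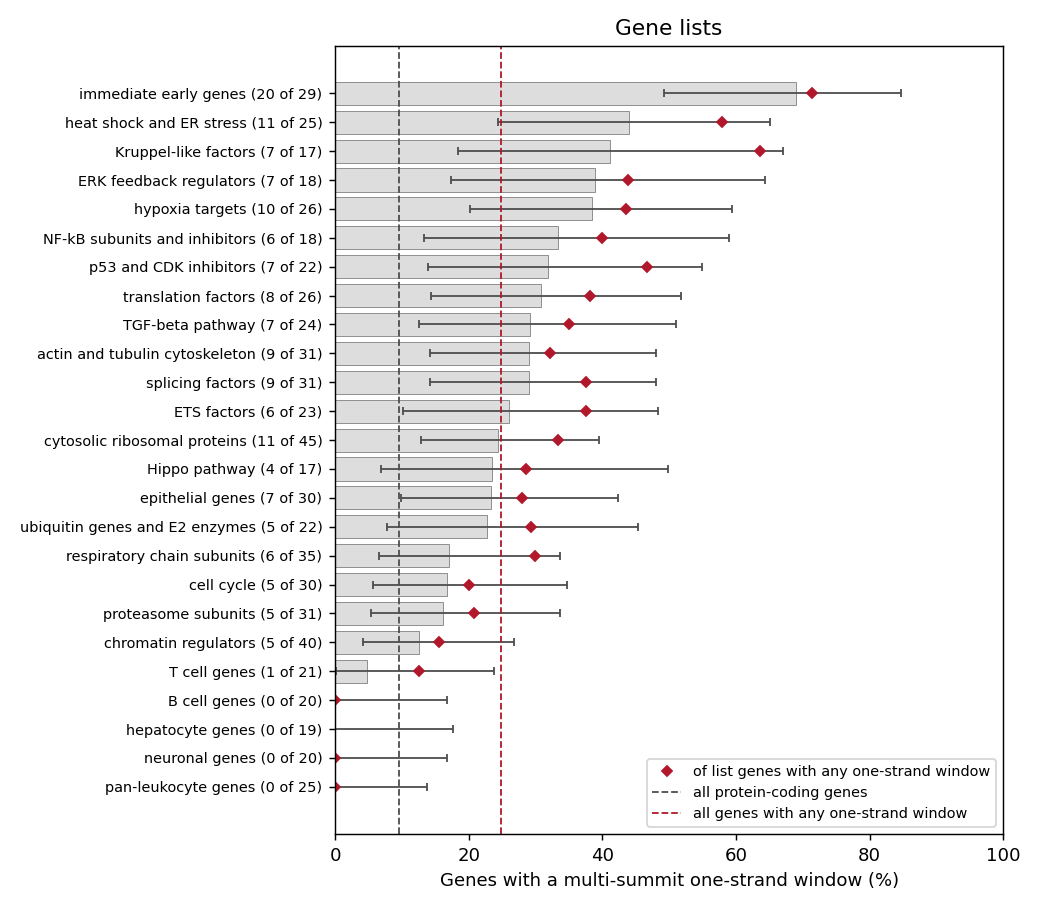
Percent of genes of each list with a member window (bars, with exact 95% intervals), and of those list genes with any promoter window on one strand (red diamonds). Dashed lines give the same percents over all genes, 9.63% (grey) and 24.9% (red). Immediate early genes are highest at 69.0% and 71.4%, and the leukocyte, B cell, hepatocyte and neuronal lists are at 0.

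Among marker genes of the sorted cells, epithelial genes had members at 7 of 30 (23.3%, 9.93 to 42.3). Of the 25 with any such promoter window the share was 28.0% (12.1 to 49.4), close to the background of 24.9%. Epcam, whose protein was used for sorting the 4T1 cells, had 2 member windows 218 bp apart, and so had Cdh1, the epithelial cadherin. Esrp2, an epithelial splicing factor, had 3, and Esrp1 had 2. The keratins Krt7, Krt8, Krt18 and Krt19 had single-summit windows only.

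No pan-leukocyte gene of 25 had a member (upper bound 13.7%), although 13 had a single-summit window at such a promoter, and none of 20 B cell genes had one (upper bound 16.8%), although 9 had single-summit windows. Both upper bounds lay above the 9.63% of all genes. Of the genes with any such promoter window, the upper bounds were 24.7% for the pan-leukocyte and 33.6% for the B cell genes, the one just under and the other above the background of 24.9%, so the absence of members in lists of this size is given as a count only. Ptprc, which encodes CD45, had no promoter window in the list. Of 21 T cell genes only Gata3, a transcription factor also expressed in mammary epithelium, had members. Its 4 windows lay in 2 calls and spanned 10929 bp. The single-summit promoter windows of the leukocyte lists were poor in CpG, with medians of 0.285, 0.388 and 0.205 for pan-leukocyte, B cell and T cell genes, compared with 0.647 for the epithelial genes without members. The part of base composition in these counts was not tested. By title the 2 groups held 96 cells each, while the number of B and T cells among the splenocytes is not given. Fewer cells of such a type, less open chromatin and fewer reads cannot be told apart in a pooled list. Hepatocyte genes (0 of 19) and neuronal genes (0 of 20), as lists of cell types not in the sample, had no members, and 0 and 4 of them had a window at such a promoter.

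By chromosome the members were 27.0% (chromosome 4) to 45.2% (chromosome 1) of the windows at these promoters. The share was 43.2% (39.6 to 46.9) on chromosome 10 and 40.7% (37.2 to 44.3) on chromosome 3. Peak calls are numbered along each chromosome, and the list held 29.6% of the call numbers in its range on chromosomes 1 and 10 to 13 and 41.3% on the others. Chromosomes 1 and 10 to 13 held 27.9% of members and 22.4% of single-summit windows, and the member share there was 38.8% compared with 32.0% on the others. The part of the missing call numbers in this difference was not tested. Within chromosomes 1 and 10 to 13 the share was uneven, from 30.1% (27.1 to 33.3) on chromosome 11 to 45.2% on chromosome 1.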

How the data were processed

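Groups were taken from the sample titles. As the study's methods describe, the authors aligned trimmed reads to mm9 (Bowtie2 2.1.0). Mitochondrial and low-quality reads were dropped, as were duplicates (Picard 1.79). Summits were called by MACS2 on aggregated cells, in a version not given in the sources used here, and each was widened to 500 bp, the best q-values being kept. The deposited columns hold window positions (start and end) and a peak name, without score, count or p-value, and the list was treated as 1 pooled sample. Read depth was not analysed here.

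From these, windows were classed by the letter in the peak name and by distance of the midpoint to starts of protein-coding transcripts in the GENCODE models of mm9 (45969 distinct starts, 22208 gene symbols). Chromosome names and lengths matched the reference genome. GC content, CpG ratio, words and CpG-rich stretches (within 3 kb of the start, steps of 10 bp) were read from that genome. Values were described with exact binomial or order-statistic 95% intervals, and no test was made, since there are no replicates. Of 649 list symbols 645 matched. The measures were tested on simulated windows. Members, gene lists and words were chosen with earlier results of these data known. Genes named are the 10 with the most member windows, up to 3 per list with the most, the 5 largest calls and the windows nearest to the 1 kb limit, and other genes were named after their values were seen. For 2 genes under this rule no value is reported here. Sequences came from named genes and were chosen for their words, although the Myc stretch held none. Tables were handled in Python 3.11.15 with pandas 2.3.3 and scipy 1.17.1. Alternatives covered the distance limit, the starts counted, overlap in place of midpoint, chromosomes, calls with several listed windows, 1 window per call, search width, CpG-rich windows and stretch criteria.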

Additional observations from a re-analysis of the deposited data

How the results depend on the processing

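No paired analysis was possible because the list is 1 pooled sample and no result comes from a test. A value was said to move where it left the 95% interval of the value reported, or where a count changed by over 1.5 times. Of 84 values under alternatives, 57 did not move and 27 did, and the cause of those moves was not tested beyond the change of windows itself. With starts within 500 bp, members were 34.8% of promoter windows on one strand, the spacing was 352 bp, 62.3% of calls had a start in between, and the CpG ratio, the GC box share and the share of summits outside transcripts were 0.746, 72.9% and 40.5%. Within 2 kb the member share was 31.0%, the share with a start in between 54.8%, the CpG ratio 0.709 and the GC box share 65.4%. With outermost starts only, the member share was 34.6%, 50.1% of summits were downstream, 50.3% of calls had a start in between, the CpG ratio was 0.733, the GC box share 69.0% and the share outside transcripts 47.7%. Any overlap gave a member share of 32.7%. Without chromosomes 1 and 10 to 13 the member share was 32.0%, the CpG ratio 0.712 and the immediate early genes with a member 12 (60.0% of those left), and the share of members on those chromosomes then has no value. With 1 window per call, the nearest to the start, 40.0% of summits were downstream and 45.7% outside transcripts, and the CpG ratio and GC box share were 0.775 and 78.7%. The GC box share was 42.7% in the central 200 bp and 78.2% in CpG-rich windows. Stretches with GC over 55% and a CpG ratio over 0.65 had a median of 830 bp. The share of immediate early genes with a member ranged from 58.6% to 72.4% over all alternatives, above the background in each. As the list was chosen with earlier results of these data known, this too is a description only. Without a score or read count per window, the depth behind a summit and the separation of neighbouring summits could not be weighed.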
